A study of Mus musculus with 8 samples.

Results

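Condensin, cohesin and the SMC5/6 complex are ring-shaped protein machines that shape chromosomes, and 10 of their genes were followed here on 30 probe sets of a mouse whole-genome array, which held 45037 probe sets beside its controls and named 18193 genes through probe sets of a single gene. The 10 genes were Smc2, Smc4, Ncapd2 and Ncapg of condensin, Smc1a, Smc3, Rad21 and Stag2 of cohesin, and Smc5 and Smc6. Every probe set was taken that the array annotation maps to a single one of these genes. The genes were chosen because Smc4 differed strongly between hosts on several probe sets in these same arrays. Host differences of all 10 genes are therefore given as a description, without a test.

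The samples were whole tumours of B16F1, a mouse melanoma line, implanted subcutaneously in a hind limb. The 4 groups were irradiated tumours of TNFR KO hosts, untreated tumours of TNFR KO hosts, irradiated tumours of WT hosts and untreated tumours of WT hosts. TNFR KO hosts lacked both TNF receptor genes, Tnfrsf1a and Tnfrsf1b, in every cell and came from a B6;129S breeding stock, whereas WT hosts were C57BL/6 mice of another supplier. The injected tumour cells were the same in both hosts and carried their own receptor genes. Mice were 8 to 12 weeks old at the start, 5 to 7 mice of each host were injected, and tumours had reached 268 to 478 cubic mm. A single dose of 20 Gy of X-rays was given to the tumour-bearing limb, and tumours were excised 5 h later. RNA was pooled by group, so each group was 1 pool measured on 2 arrays. A ± below is the SD of those 2 technical duplicates (n = 2), which holds no variation between mice or pools.

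Condensin winds mitotic chromosomes into compact rods. SMC2 and SMC4 form its arms and ATPase heads in every condensin, and NCAPD2 and NCAPG are the HEAT-repeat subunits of condensin I. Cohesin, built from SMC1A, SMC3, the kleisin RAD21 and a STAG subunit, holds sister chromatids together after replication and extrudes chromatin loops in interphase. SMC5/6 acts in DNA repair by recombination and at stalled replication forks.

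Values are MAS5 signals on a linear scale, and differences are of log2(signal + 16). Probe sets bind with unequal strength, so levels of different probe sets were not set against each other. Of the 30 probe sets, 26 reached the median level of all probe sets (a signal of 68.8) and were analysed among 22519 such probe sets. The 4 others were 3 of Smc2 and 1 of Smc6. All 10 genes kept at least 1 probe set.

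The hosts' arrays also differed in their controls. Poly-A spike-in transcripts, added to RNA before labelling, averaged 12.8 to 20.9 on the TNFR KO arrays and 5638 to 10462 on the WT arrays, and 18S ribosomal RNA averaged 511 to 956 and 284 to 345. Hybridisation controls, added later, read 5230 to 5952 on TNFR KO arrays and 4966 to 6539 on WT arrays. The 5' to 3' signal ratio of actin was 0.785 to 0.803 and 0.727 to 0.786. Any host difference below could not be separated from the preparation of the arrays; host and preparation cannot be told apart. Duplicates correlated at 0.988 to 0.991 across the analysed probe sets, and arrays of different hosts at 0.935 to 0.953.

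Smc4 was several times lower in tumours of TNFR KO hosts on each of its 3 probe sets. On the brightest (1427275_at) it read 527.8 and 749.8 in irradiated TNFR KO tumours, 1059.8 and 947.2 in untreated TNFR KO tumours, 3434.5 and 3550.7 in irradiated WT tumours and 3874.5 and 3705 in untreated WT tumours. The highest TNFR KO array lay below the lowest WT array by a wide margin. The host difference (TNFR KO minus WT) was -2.44 in irradiated and -1.90 in untreated tumours. A second probe set (1452197_at) averaged 712 ± 24.6 and 822 ± 149 in irradiated and untreated TNFR KO tumours, against 2525 ± 47.7 and 2930 ± 41.5 in irradiated and untreated WT tumours. The dimmest (1427276_at) averaged 150 ± 2.69 and 140 ± 24.1 against 602 ± 53.0 and 642 ± 12.8 in the same order. The differences of these 2 probe sets lay between -2.09 and -1.81. Smc4 was chosen for strong differences on several probe sets, so the likeness of its 3 readings adds no support.

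Smc2, the partner of Smc4 in the condensin ring, was lower by a smaller amount. Its brightest probe set (1448635_at) read 417.8 and 412.2 in irradiated TNFR KO tumours, 687.3 and 642.4 in untreated TNFR KO tumours, 792.7 and 809.3 in irradiated WT tumours and 1101.5 and 1100.4 in untreated WT tumours. The hosts did not overlap, but untreated TNFR KO tumours came near irradiated WT tumours. The host difference was -0.92 in irradiated and -0.71 in untreated tumours, and -0.64 and -1.38 on the second analysed probe set (1429658_a_at). Of the 3 dim probe sets of Smc2, 1429660_s_at read 6.3 and 6.1 in irradiated TNFR KO tumours, 30.4 and 12.4 in untreated TNFR KO tumours, 70.3 and 94.9 in irradiated WT tumours and 141 and 108.6 in untreated WT tumours. The hosts did not overlap there, with differences of -2.14 and -1.95 whose size depends on the pseudocount, and the WT arrays were above the filter level. The other 2 read at most 25.6 on every array, with overlapping hosts.

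The HEAT-repeat subunits of condensin I went opposite ways. Ncapg read 181.1 and 141.8 in irradiated TNFR KO tumours, 171.3 and 150 in untreated TNFR KO tumours, 435.6 and 465.9 in irradiated WT tumours and 550.4 and 426.6 in untreated WT tumours (1429171_a_at). Ncapd2 instead read 3910.2 and 4177.4 in irradiated TNFR KO tumours, 4257.9 and 4287.3 in untreated TNFR KO tumours, 2461.7 and 2433 in irradiated WT tumours and 3384 and 3474.1 in untreated WT tumours (1423847_at). Neither gene's hosts overlapped, with Ncapg low and Ncapd2 high in TNFR KO tumours. Host differences were -1.40 and -1.51 for Ncapg in irradiated and untreated tumours, and 0.72 and 0.32 for Ncapd2. The second probe sets pointed the same way, at -0.82 and -0.74 for Ncapg (1429172_a_at) and 0.45 and 0.68 for Ncapd2 (1430010_at).

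Ncapd2 was the member nearest to a targeted gene: on chromosome 6 of GRCm38, 7 protein-coding genes lie between it and Tnfrsf1a. Of the 4 of these 7 that were tested, 0 were called for host by limma (described below), with differences over both treatments of -0.26 to 0.56. The part of linked DNA from the targeted stock in the Ncapd2 values was not tested.

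The promoters of these condensin I genes are shown because Ncapd2 differed in the opposite direction from Smc2 and Ncapg although the proteins work in one complex. They are the 250 bases before the annotated start, from RefSeq on GRCm38.p6, written 5' to 3' on the gene's strand. Capitals mark matches, on either strand, to CCAAT (the CCAAT box), TTTGAA (the cell-cycle homology region of many mitotic genes) or TTTNGCGC (an E2F-like site). No matches overlap.
Smc2, chr4:52438971-52439220, plus strand: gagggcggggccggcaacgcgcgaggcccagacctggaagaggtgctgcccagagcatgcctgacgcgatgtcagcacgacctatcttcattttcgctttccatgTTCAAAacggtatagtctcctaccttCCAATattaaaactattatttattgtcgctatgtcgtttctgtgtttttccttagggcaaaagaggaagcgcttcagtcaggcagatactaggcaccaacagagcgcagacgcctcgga
Ncapg, chr5:45669675-45669924, plus strand: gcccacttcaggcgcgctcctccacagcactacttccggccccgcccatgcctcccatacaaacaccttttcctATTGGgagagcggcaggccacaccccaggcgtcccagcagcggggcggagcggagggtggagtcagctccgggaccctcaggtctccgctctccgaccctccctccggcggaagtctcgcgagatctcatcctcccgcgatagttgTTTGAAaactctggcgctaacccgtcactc
Ncapd2, chr6:125191587-125191836, minus strand: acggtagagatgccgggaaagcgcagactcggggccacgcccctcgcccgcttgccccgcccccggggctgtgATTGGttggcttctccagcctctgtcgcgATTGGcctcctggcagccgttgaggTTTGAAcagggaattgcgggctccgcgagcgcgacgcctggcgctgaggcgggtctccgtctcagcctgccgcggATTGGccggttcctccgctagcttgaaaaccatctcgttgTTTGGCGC
All 3 hold CCAAT and TTTGAA, and Ncapd2 alone of the 3 holds TTTNGCGC. Promoters of 7 of the 10 genes were matched, and CCAAT was found in 4 of them, TTTGAA in 4 and TTTNGCGC in 1. Of all 32851 promoters of this length, 33.8% hold CCAAT, 15.99% TTTGAA and 1.13% TTTNGCGC. A match describes the letters only and does not show that a factor binds there.

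Among cohesin genes, Smc3 and Stag2 showed wider host differences than Rad21 and Smc1a on the brightest probe set of each, an order that other probe sets of these genes did not keep. Stag2, one of the alternative STAG subunits that bind the kleisin, read 825.7 and 771.4 in irradiated TNFR KO tumours, 894.5 and 826.1 in untreated TNFR KO tumours, 1548.6 and 1644.3 in irradiated WT tumours and 1970.3 and 1960.3 in untreated WT tumours (1421849_at). All WT arrays read well above all TNFR KO arrays. Differences were -0.99 in irradiated and -1.18 in untreated tumours, and -1.94 and -1.99 on the dimmer probe set (1450396_at), where the averages were 116 ± 2.69 and 124 ± 6.22 against 488 ± 19.4 and 539 ± 23.9.

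Smc3, whose acetylation locks cohesin on chromatin, read 452.8 and 477.9 in irradiated TNFR KO tumours, 690.8 and 522.2 in untreated TNFR KO tumours, 1203.5 and 1040.7 in irradiated WT tumours and 1338.6 and 1329.9 in untreated WT tumours (1450950_at). These gave differences of -1.24 in irradiated and -1.13 in untreated tumours. Its other probe set (1450951_at) did not show them: it averaged 104 ± 8.84 and 109 ± 6.72 in irradiated and untreated TNFR KO tumours against 144 ± 36.6 and 122 ± 13.4 in WT, and the hosts overlapped.

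Rad21, the kleisin cut by separase at anaphase, read 2286.9 and 2553.4 in irradiated TNFR KO tumours, 3169.9 and 3326.9 in untreated TNFR KO tumours, 3405.4 and 4924.4 in irradiated WT tumours and 5307.9 and 5536.8 in untreated WT tumours (1416161_at). The irradiated WT duplicates were far apart, and without replicate 1 or 2 of that pool the difference in irradiated tumours was between -1.02 and -0.49. It was -0.76 with both, and -0.74 in untreated tumours. A second probe set gave -0.86 and -0.84 (1416162_at), and the third -0.37 and -0.36 with overlapping hosts (1455938_x_at).

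Smc1a, the X-linked partner of Smc3, read 805.4 and 829.6 in irradiated TNFR KO tumours, 1164.9 and 1285.1 in untreated TNFR KO tumours, 1511.4 and 1306.1 in irradiated WT tumours and 1568.3 and 1616.6 in untreated WT tumours (1417830_at). The TNFR KO arrays were all lower, the untreated ones only slightly. Its 3 probe sets differed by -1.17 to -0.75 in irradiated and -0.66 to -0.38 in untreated tumours.

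Smc6 had the most probe sets, and their host differences spread widely. The probe set with the largest difference (1422910_s_at) read 201.1 and 172.8 in irradiated TNFR KO tumours, 268.8 and 282.5 in untreated TNFR KO tumours, 789.2 and 796.6 in irradiated WT tumours and 960.5 and 1007.1 in untreated WT tumours. All TNFR KO arrays lay far below all WT arrays, and the differences were -1.998 in irradiated and -1.78 in untreated tumours. The brightest probe set (1448828_at) averaged 295 ± 6.29 and 502 ± 7.71 in irradiated and untreated TNFR KO tumours against 717 ± 60.4 and 759 ± 42.9 in WT, or -1.23 and -0.58. Over the 5 analysed probe sets of Smc6 the differences ran from -1.998 to -0.91 in irradiated and from -1.78 to -0.54 in untreated tumours.

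Smc5, which forms the ring with Smc6, read 125.8 and 153.7 in irradiated TNFR KO tumours, 107.3 and 143.3 in untreated TNFR KO tumours, 226.7 and 203 in irradiated WT tumours and 173.3 and 253.5 in untreated WT tumours (1426270_at). The gap between the hosts was narrow, and the differences were -0.57 in irradiated and -0.69 in untreated tumours. The second probe set (1426271_at) differed by -1.85 in irradiated and -0.78 in untreated tumours.

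**Figure D1:**
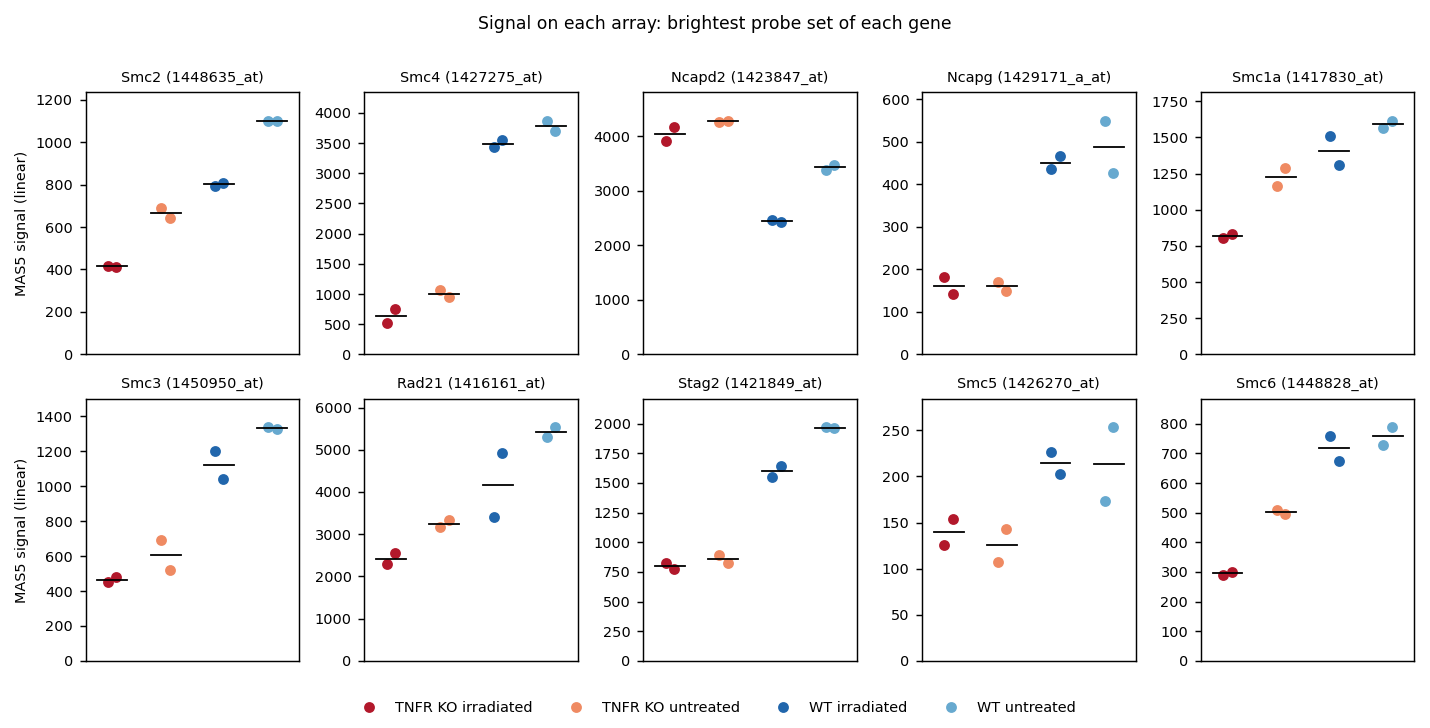
MAS5 signal (linear axis from 0) of the brightest probe set of each gene on each of the 8 arrays, with points for arrays and a line for the mean of the 2 duplicates. For 9 genes the TNFR KO arrays lie below the WT arrays, and for Ncapd2 they lie higher.

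Of the 10 genes, 9 were lower in TNFR KO tumours on every analysed probe set in both treatments, and Ncapd2 was higher on both of its own. Probe sets at least 2-fold lower in TNFR KO tumours numbered 12 of 26 in irradiated tumours, against 7.88% of all 22519 analysed probe sets, and 11 of 26 in untreated tumours, against 6.86%. None of the 26 was 2-fold higher, against 1.22% and 3.89% of all. The median difference of the 26 was -0.95 in irradiated and -0.76 in untreated tumours, where that of all analysed probe sets was 0.023 and 0.074. On 22 of the 26 all 4 TNFR KO arrays read below all 4 WT arrays (21.4% of all analysed probe sets), and on 2 above (19.8%). In the limma fit described below 13.3% of all analysed probe sets were lower and 4.18% higher in TNFR KO hosts. The genes were chosen on this contrast, so nothing further is read from these counts.

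**Figure D2:**
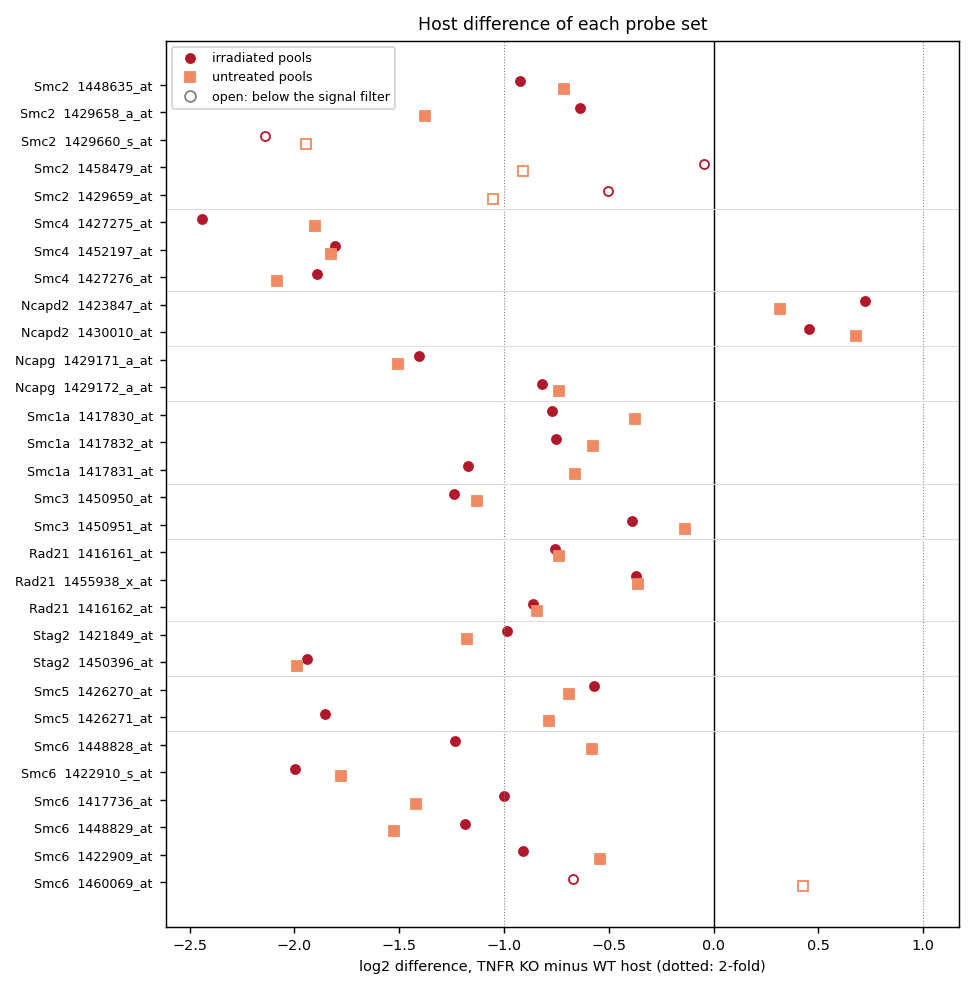
Difference of log2(signal + 16) between TNFR KO and WT hosts for each of the 30 probe sets, with circles for irradiated and squares for untreated pools, open where the probe set was below the signal filter. Both Ncapd2 probe sets lie right of 0 and every other filled symbol left of it.

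Tumours hold several cell types, and a lower signal in bulk RNA cannot tell fewer cells of a type from less RNA per cell. Melanocyte genes marked the tissue as melanoma in every pool. Mlana, a melanosome protein of pigment cells, averaged 29516 and 27843 in irradiated and untreated TNFR KO tumours and 31683 and 25371 in WT. The summed signal of 8 melanocyte markers was 167444 to 178362 on TNFR KO and 160623 to 197464 on WT arrays, and in the limma host test described below 1 of the 8 was called lower and 0 higher. On the brightest probe set of each gene, that test called 13.0% of 11345 genes lower and 3.73% higher. Fibroblast markers (7 genes) summed to 9972 to 15178 on TNFR KO and 4719 to 7325 on WT arrays, with 2 of 6 tested called higher. Endothelial markers (6 genes) summed to 1717 to 2234 on TNFR KO and 1064 to 1294 on WT arrays (2 of 5 called higher), keratinocyte markers (6 genes) to 762 to 2817 on TNFR KO and 335 to 543 on WT arrays (2 of 4 higher), and erythroid markers (3 genes) to 549 to 4245 on TNFR KO and 393 to 1569 on WT arrays (1 of 2 higher). Neutrophil markers (5 genes) summed to 999 to 1143 on TNFR KO and 3580 to 24173 on WT arrays (2 of 4 called lower) and skeletal muscle markers (7 genes) to 436 to 1254 on TNFR KO and 811 to 3067 on WT arrays (3 of 5 lower). Macrophage markers (9 genes) summed to 9257 to 14335 on TNFR KO and 6626 to 13062 on WT arrays, with 0 of 9 called and 0 at an unadjusted p under 0.05. In untreated tumours these sums were 13727 to 14335 on TNFR KO and 6626 to 6703 on WT arrays. In irradiated tumours they were 9257 to 9406 and 12873 to 13062. Their median host difference was 0.91 in untreated and -0.26 in irradiated tumours, a reversal that an additive host term cannot call. Of 8 lymphocyte markers, which summed to 432 to 645 on TNFR KO and 428 to 720 on WT arrays, 1 was bright enough to test and was not called, at an unadjusted p above 0.05, and Cd3e, Cd3g, Cd4 and Ncr1 stayed under the filter level on every array, as did the endothelial marker Tek and the erythroid marker Hba-a1. The part of these cell types in the condensin and cohesin values was not tested.

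Genes outside the 10 were also tested for host. Their lists were drawn up with earlier results of these data known, so calls on them add no independent support. The fit was limma on 1 value per pool with host and treatment as additive terms, with Benjamini-Hochberg adjustment over 22519 probe sets and a call under 0.05; its error is the disagreement between treatments, not a spread between pools of one group. Each gene was read on its brightest probe set, on which 13.0% of 11345 genes were called lower and 3.73% higher in TNFR KO hosts. Of 32 further genes of the complexes and their regulators, 31 were on the array and 27 were tested. Of the 27, 10 were lower in TNFR KO hosts, 1 was higher and 16 did not pass. Their median difference was -0.16, against 0.085 over all 11345 genes.

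Lower genes included 1 condensin II subunit, a cohesin subunit and some cohesin regulators. The condensin II subunit genes Ncapd3 (-0.31, and up to 0.72 on other tested probe sets) and Ncaph2 (0.028, and up to 0.88) did not pass. Cohesin regulators that did not pass included Cdca5 (0.60), Mau2 (0.32), Pds5a (-0.64) and Sgo2a (-0.66). The tested SMC5/6 subunit genes Nsmce1, Nsmce2, Nsmce3 and Nsmce4a, named after their values were seen, did not pass (-0.15 to 0.27). Ncapg2, the condensin II counterpart of Ncapg, averaged 477 and 611 in irradiated and untreated TNFR KO tumours against 1208 and 1462 in WT (-1.27 ± 0.16, SE, adjusted p = 0.0154). Stag1, the alternative to Stag2, averaged 493 and 585 against 1030 and 1479 (-1.18 ± 0.17, adjusted p = 0.0173). Nipbl, which loads cohesin, differed by -1.21 ± 0.18 (-1.21 to -0.40 over its 3 tested probe sets), Sgo1, which protects cohesin at centromeres, by -1.16 ± 0.18, and Esco2, which acetylates SMC3 in S phase, by -1.12 ± 0.21. Slf1, which in human cells helps bring SMC5/6 to damaged DNA, differed by -1.31 ± 0.16. Of the 10 lower genes, 8 stayed called whichever array was left out. The call on Esco2 ended without TNFR KO untreated replicate 1 (-1.35, adjusted p = 0.0545). That on Pds5b, a cohesin regulator named after its values were seen, ended without any 1 array (-0.80 to -0.71, adjusted p between 0.0515 and 0.0699). For Stag1 the 6 tested probe sets ranged from -1.44 to -0.12, so its readings disagreed in size.

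Espl1, the separase that cuts RAD21, was the one gene called higher (0.73 ± 0.17, adjusted p = 0.0406), at 1099 and 1345 in irradiated and untreated TNFR KO tumours against 592 and 880 in WT. That call ended without any 1 of 7 arrays, all but WT irradiated replicate 2, with differences of 0.64 to 0.82. Ncaph, the kleisin of condensin I, was not called and averaged 3321 and 2711 in irradiated and untreated TNFR KO tumours against 2911 and 2437 in WT (0.17 ± 0.16, adjusted p = 0.455).

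Cell-cycle genes gave a measure of proliferation on the same arrays. Of 24 tested, 5 were lower in TNFR KO hosts, 0 higher and 19 did not pass, with a median of -0.084. Bub1, a spindle checkpoint kinase, differed by -1.59 ± 0.16 but by -0.58 on its other tested probe set, the proliferation marker Mki67 by -1.42 ± 0.29, and the centromere kinesin Cenpe by -0.90 ± 0.16. The kinesin Kif11 and the cyclin Ccna2 were the other 2, at -0.79 ± 0.16 and -0.69 ± 0.16. The count was 2 without TNFR KO untreated replicate 1, and also 2 when WT irradiated replicate 1 was the array left out. It was 3 when WT untreated replicate 1 was. Bub1 alone was called whichever array was left out. The replication helicase genes Mcm2 (0.58 ± 0.18, adjusted p = 0.0828) and Mcm3 (0.58 ± 0.17, adjusted p = 0.0711) did not pass. Nor did the other listed genes of that helicase, with Mcm5 (0.41) and Mcm7 (0.37) above 0 and Mcm4 (-0.36) and Mcm6 (-0.29) below it. Other tested probe sets reached 1.18 for Mcm5, 0.92 for Mcm3, 0.62 for Mcm2 and 0.53 for Mcm7. Those of Mcm4 and Mcm6 stayed below 0, from -0.42 for Mcm4 to -0.072 for Mcm6. The part of proliferation in the condensin and cohesin values was not tested.

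**Figure D3:**
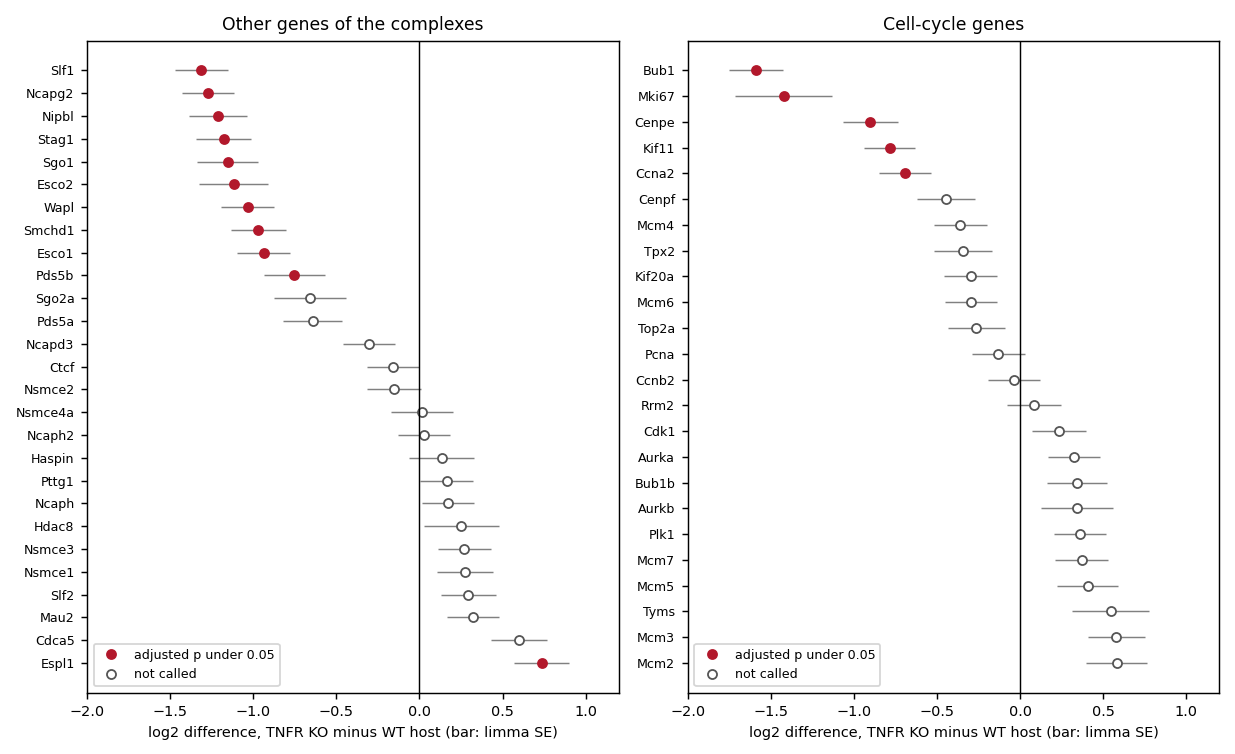
Host difference over both treatments (TNFR KO minus WT, log2, with limma's standard error) on the brightest probe set of other genes of the complexes (left) and of cell-cycle genes (right), filled where the adjusted p was under 0.05. The left panel has 10 filled points left of 0 and 1 right of it, the right panel 5 left of 0.

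Among the 5 probe sets outside the 10 genes whose pattern was most like that of Smc4 (1427275_at) were those of Ankhd1, Zfp655, Taok1 and Aggf1, with Pearson's r of 0.997 to 0.999 over the 8 arrays on the log2 scale. Aggf1, an angiogenic factor, averaged 826 and 973 in irradiated and untreated TNFR KO tumours against 1372 and 1432 in WT. These arrays are 2 of each of 4 pools and fall apart by host, and 13.6% of all analysed probe sets had an r over 0.9 with Smc4, so a high r says mainly that a probe set was lower in TNFR KO tumours.

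Radiation was not used to choose the genes and could be tested for them. Over both hosts 0 of the 26 analysed probe sets were called in either direction in the limma fit, as were only 5 of all 22519 (0.0222%, all higher). At an unadjusted p under 0.05 there were 3 of 26, all lower, against 5.46% of all probe sets lower and 5.87% higher at that level. The single value that limma could use per pool limits what this fit can detect. Signals of 21 of the 26 were lower after irradiation over both hosts, against 52.3% of all analysed probe sets, by a median of -0.20 against -0.016.

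Controls and cell type markers moved with treatment too. Poly-A spike-ins averaged 10415 to 10462 on irradiated and 5638 to 5731 on untreated WT arrays, and 15.7 to 20.9 and 12.8 to 13.0 on irradiated and untreated TNFR KO arrays. 18S ribosomal RNA averaged 932 to 956 on irradiated and 511 to 547 on untreated TNFR KO arrays, and 335 to 345 and 284 to 301 on irradiated and untreated WT arrays. Each group was 1 pool, so radiation and preparation cannot be told apart either. Skeletal muscle markers had a median radiation difference of -1.43 (5 of 5 tested with an unadjusted p under 0.05), keratinocyte markers -0.68 (2 of 4), neutrophil markers 1.09 (2 of 4) and erythroid markers 1.75 (2 of 2), and 0 of them were called. At that unadjusted level 5.46% of all analysed probe sets were lower and 5.87% higher. Summed skeletal muscle signal was 436 to 475 on irradiated and 1137 to 1254 on untreated TNFR KO arrays, and 811 to 947 and 2979 to 3067 on irradiated and untreated WT arrays. Neutrophil signal was 23339 to 24173 and 3580 to 4007 on irradiated and untreated WT arrays, and 1143 and 999 to 1036 on irradiated and untreated TNFR KO arrays. Erythroid signal was 3875 to 4245 and 549 to 595 on irradiated and untreated TNFR KO arrays, and 1473 to 1569 and 393 to 456 on irradiated and untreated WT arrays. Macrophage signal, given above by treatment, was higher after irradiation in WT and lower in TNFR KO tumours. So was the summed keratinocyte, fibroblast and endothelial signal. Keratinocyte signal was 535 to 543 and 335 to 458 on irradiated and untreated WT arrays. On TNFR KO arrays it was 762 to 809 and 2534 to 2817. In the same order fibroblast signal was 7292 to 7325, 4719 to 4823, 9972 to 9991 and 14801 to 15178. Endothelial signal was 1252 to 1294, 1064 to 1122, 1717 to 1864 and 2232 to 2234. The part of these cell types in the radiation values was not tested.

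The largest difference was that of Smc2, whose values are given above: both irradiated arrays read below both untreated arrays in each host, with log2 differences of -0.66 in TNFR KO and -0.45 in WT tumours. Over both hosts this was -0.56 ± 0.16 (SE, unadjusted p = 0.0167, adjusted p = 0.384), with an unadjusted p of 0.0179 to 0.0232 without 1 array. When only probe sets above the 75th percentile of level were tested, Smc2 alone of these genes was called (adjusted p = 0.00751), with 449 higher and 558 lower among all. No probe set of Smc5 or Ncapg was bright enough to be tested there, nor was 1429658_a_at of Smc2. The share of tested probe sets called at that filter was not counted, so nothing is read from the Smc2 call. Smc2's second analysed probe set did not move alike: it averaged 153 ± 52.4 and 129 ± 3.39 in irradiated and untreated TNFR KO tumours and 241 ± 1.06 and 360 ± 30.6 in irradiated and untreated WT tumours (0.19 and -0.55).

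Rad21 and Smc6 held the other 2 probe sets with an unadjusted p under 0.05. For Rad21 (1416161_at) the difference was -0.42 in TNFR KO and -0.40 in WT tumours, or -0.41 ± 0.16 over both (adjusted p = 0.427). Its second probe set gave -0.38 ± 0.16 and the third -0.081 ± 0.16, with overlapping arrays in both hosts. The irradiated WT duplicates of 1416161_at were far apart, and the unadjusted p was no longer under 0.05 without any 1 of 4 arrays, at most 0.156 without WT irradiated replicate 1, where the difference was -0.28. For Smc6 (1422910_s_at) it was -0.53 and -0.31, or -0.42 ± 0.16 (adjusted p = 0.436). Its unadjusted p was not under 0.05 without any 1 of 6 arrays, at most 0.071 without TNFR KO irradiated replicate 2. The other 4 analysed Smc6 probe sets ran from -0.41 to 0.0995. On 1416161_at and 1422910_s_at the irradiated arrays lay below the untreated arrays in both hosts. None of the 3 Smc4 probe sets had an unadjusted p under 0.05. The brightest (1427275_at) differed by -0.66 in TNFR KO and -0.12 in WT tumours, with irradiated arrays below untreated ones in both hosts, or by -0.39 ± 0.19 over both. The other Smc4 probe sets gave -0.20 and 0.0031.

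Other genes gave no radiation call in the same fit. Of the 27 tested genes of the complexes and their regulators 0 were called, where 0.0264% of all 11345 genes were called higher and 0.0% lower, and 4 had an unadjusted p under 0.05, all lower (Slf1, Smchd1, Ctcf and Espl1). Of the 24 cell-cycle genes 0 were called and 12 had an unadjusted p under 0.05, all lower, with a median of -0.45 against -0.018 over all genes. Of all analysed probe sets 5.46% were lower and 5.87% higher at that unadjusted level, and the share of all genes was not counted.

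Within TNFR KO hosts the median radiation difference of the 26 probe sets was -0.15 1 was at least 2-fold lower (0.839% of all analysed) and 0 were 2-fold higher (0.941%). Within WT hosts the median was -0.17 0 were 2-fold lower (0.32% of all) and 0 were 2-fold higher (2.42%). Irradiated duplicates lay below untreated ones on 15 of 26 in TNFR KO hosts (34.8% of all analysed) and on 16 of 26 in WT hosts (33.5%), and above on 1 (28.2%) and 2 (31.7%). Centring arrays on their median moved every radiation difference in WT hosts by -0.26 and that over both hosts by -0.14, so the signs of small differences are not settled. After it 25 of 26 were below 0 in WT hosts and 26 of 26 over both hosts, where 1 probe set each of Ncapd2, Smc3, Smc4, Smc5 and Smc6 changed sign. The median of all analysed probe sets was then also below 0, at -0.26 in WT hosts and -0.16 over both hosts. That of the 26 was -0.42 and -0.34. The share of all probe sets below 0 after centring was not counted, so nothing is read from the 25 and 26.

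The 1 probe set past 2-fold was that of Smc5 (1426271_at). It read 60.6 and 54.9 in irradiated TNFR KO tumours, 118 and 153.4 in untreated TNFR KO tumours, 255.3 and 244.9 in irradiated WT tumours and 248.6 and 238.7 in untreated WT tumours. It was low in TNFR KO tumours after irradiation and level in WT tumours, with radiation differences of -1.03 and 0.035. The first was -0.98 without TNFR KO irradiated replicate 2 and -0.86 without TNFR KO untreated replicate 2, within 2-fold in both cases. The difference between them, -1.07, was beyond 2-fold, as for 5.23% of all analysed probe sets, and it was not tested, since each group was 1 pool. It was -0.74 with a pseudocount of 64, -0.84 with arrays centred on the median and -0.90 without TNFR KO untreated replicate 2. The other Smc5 probe set (1426270_at) gave 0.15 and 0.030. Between the hosts' radiation differences the other 25 probe sets differed by less than 2-fold.

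**Figure D4:**
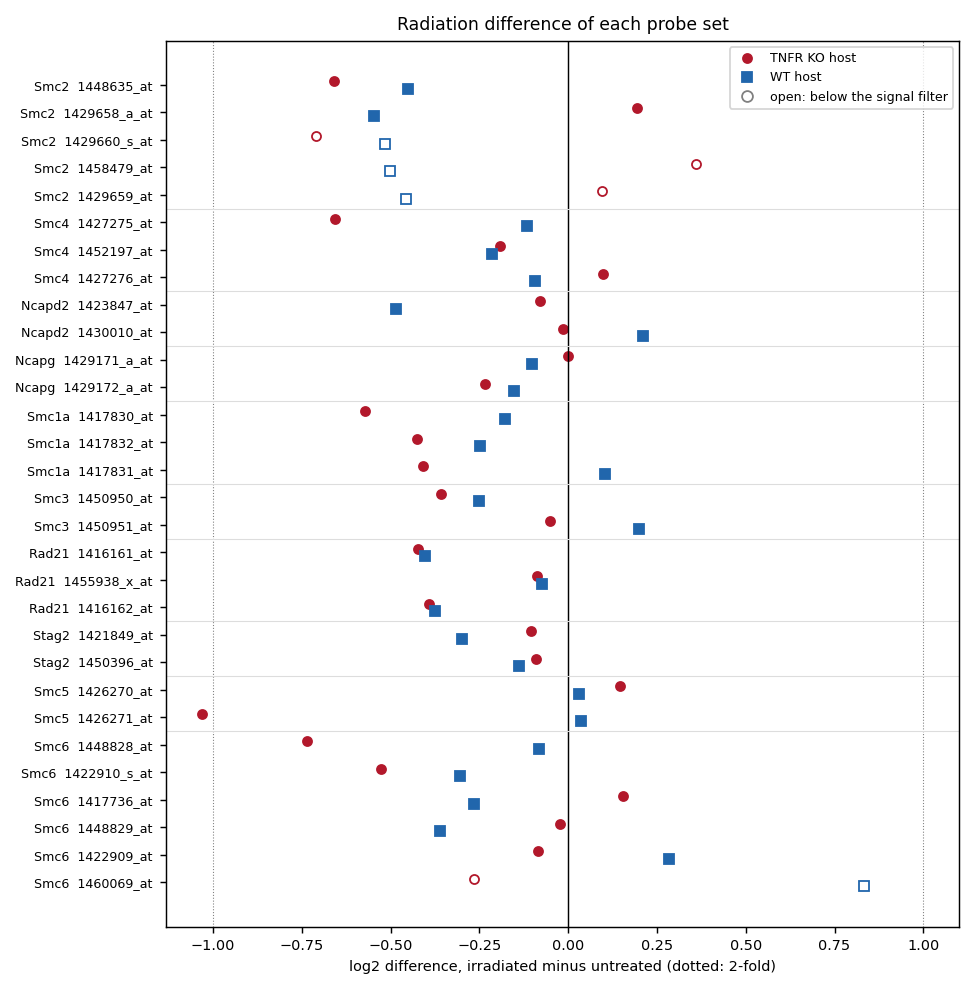
Difference of log2(signal + 16) between irradiated and untreated pools for each of the 30 probe sets, with circles for TNFR KO and squares for WT hosts, open below the signal filter. Most symbols lie between -0.75 and 0.25, and the Smc5 probe set 1426271_at in TNFR KO hosts is the one filled symbol past the 2-fold line.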

How the data were processed

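Biotin-labelled RNA of 4 tumour pools was measured on 8 Affymetrix Mouse Genome 430 2.0 arrays, 2 technical duplicates per pool. The authors deposited MAS5 intensity values, unlogged; the submitters' processing notes name MAS5 without a version. A 2% trimmed mean came to 500.0 for each array, as after global scaling. The number of arrays limits the precision, and p-values measure only the spread the fit can see, which holds no replicate pools.

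The array annotation supplied here named 1 gene for 34945 probe sets, several for 932 and none for 9160, and 64 were controls. All 30 probe sets of the 10 genes matched RefSeq (GRCm38.p6) by gene identifier, and 0 symbols changed. Signals were transformed as log2(signal + 16), and duplicates were averaged. Probe sets whose mean log2 level reached the median (6.41) were fitted in limma 3.58.1 (R 4.3.3) with host and treatment as additive terms (1 residual and 4.41 prior degrees of freedom), two-sided, with Benjamini-Hochberg adjustment over 22519 probe sets. Comparisons of single pools had no test and a 2-fold threshold. Fits were tested on simulated data. Figures used matplotlib 3.10.9.

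The members, gene lists and alternatives were chosen with earlier results of these data known. By a rule written down, all member probe sets, up to 6 called genes a list and direction, and the 5 probe sets most like Smc4 were named, except 1 of these 5, which is not reported here. The Mcm genes, Ncaph, Ncapd3, Ncaph2, Cdca5, Mau2, Pds5a, Pds5b, Sgo2a, Ctcf, Smchd1 and the Nsmce genes were named after their values were seen. Alternatives were 2 other scalings, 2 other pseudocounts, 2 other filters, 1 probe set per gene, limma-trend, 8-array fits with and without a replicate block, and leaving out each array.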

Additional observations from a re-analysis of the deposited data

Results flagged for a closer look

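On 2 probe sets of Smc6 both irradiated arrays moved one way in TNFR KO hosts and the opposite way in WT hosts. The difference was not tested, since each group was 1 pool. Duplicates that do not overlap were common over all analysed probe sets. Irradiated arrays lay below on 34.8% in TNFR KO and 33.5% in WT hosts, and above on 28.2% and 31.7%. How many probe sets moved opposite ways between the hosts was not counted. Smc6 on 1417736_at read 197.4 and 218.3 in irradiated and 178.8 and 191.4 in untreated TNFR KO tumours, and 430.5 and 433.5 in irradiated and 479.9 and 568.6 in untreated WT tumours, a difference between the log2 radiation differences of 0.419. On 1460069_at, which lay below the signal filter, it read 36.5 and 43.9 in irradiated and 47.6 and 55.4 in untreated TNFR KO tumours, and 68.8 and 78 in irradiated and 40.4 and 28.5 in untreated WT tumours, a difference of -1.099. The 2 probe sets of one gene therefore pointed in opposite directions. With arrays centred on the median the values were 0.65 and -0.87. The brightest Smc6 probe set (1448828_at) gave -0.65, with irradiated arrays below untreated ones in TNFR KO hosts and overlapping arrays in WT hosts.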

How the results depend on the processing

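All 312 host differences of the 26 member probe sets in irradiated tumours, and all 312 in untreated tumours, kept their sign over 12 alternatives (2 scalings, 2 pseudocounts and 8 left-out arrays), and 20 and 32 moved by more than the spread of duplicates. A host difference in 1 treatment uses no array of the other, so leaving those arrays out could not move it. The same holds for a radiation difference in 1 host. The members were chosen on host differences, so nothing is read from the kept signs. Counts of members 2-fold lower stayed at 10 to 14 in irradiated and 10 to 12 in untreated tumours. Radiation differences, which are smaller, changed sign in 19 of 312 in TNFR KO and 14 of 312 in WT hosts. Counts of calls differed between settings. For radiation over all 22519 probe sets, 5 were higher and 0 lower. These counts were 176 and 40 with 1 probe set per gene, 183 and 183 with arrays centred on the median, 449 and 558 above the 75th percentile, 190 and 61 with limma-trend, and 87 and 7 with a pseudocount of 64. The count higher was 0 with no filter (3510 unadjusted), no pseudocount or quantile normalization, and 0 to 6 without 1 array. Centring made 50% of radiation calls higher, against 100%, and 20.6% of host calls, against 23.9%. For host, 941 were higher and 2999 lower. The count higher was 2634 above the 75th percentile, 2673 with limma-trend, 502 with no pseudocount, 1993 with a pseudocount of 64 and 336 to 740 without 1 array, where 1974 to 2838 were lower. With no filter limma called 0 for host in either direction (8600 unadjusted), none of the complex or cell-cycle genes included. Complex genes called higher (1) numbered 2 with 1 probe set per gene, the 75th percentile, limma-trend or a pseudocount of 64, 0 with no pseudocount and 0 to 1 without 1 array, where 8 to 10 were lower. Cell-cycle genes called higher (0) numbered 2 with 1 probe set per gene or a pseudocount of 64, 5 above the 75th percentile and 4 with limma-trend. Those called lower (5) numbered 3 with no pseudocount or quantile normalization and 2 to 5 without 1 array. Members called lower for radiation (0) numbered 1 above the 75th percentile and 0 without any 1 array. Smc5, the 1 member 2-fold lower after radiation in TNFR KO hosts, made that count 0 with a pseudocount of 64 and 0 to 1 without 1 array. The count beyond 2-fold between the hosts' radiation differences (1) was 0 with that pseudocount or centring and 0 to 2 without 1 array.

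Same-numbered arrays did not deviate together (correlations of -0.019 to 0.021 over 6 pairs of pools), so the numbers do not pair the samples. A fit of all 8 arrays treats technical duplicates as replicates. With the replicate block it called 857 higher and 1126 lower for radiation, members 3 lower (Smc2, Smc6 and Rad21), and 5342 higher and 5457 lower for host, with 5 complex genes higher and 9 cell-cycle genes higher and 10 lower. With no replicate block it called 1325 and 1893, members 4 lower (Smc1a added), and 5867 and 5738, with 7 complex genes higher and 9 cell-cycle genes higher and 11 lower. The cause of these differences between settings was not tested.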
